A study of Mus musculus with 6 samples.

Results

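The 60 genes described here encode nucleolar factors that build ribosomes. They were listed by symbol and each matched 1 Ensembl identifier among the 53801 genes of the RNA-seq tables. By textbook role, 29 act on the small ribosomal subunit, 17 on the large subunit, 8 belong to small nucleolar ribonucleoproteins (snoRNPs), 3 are subunits of RNA polymerase I and 3 are general nucleolar proteins. Their mRNA was compared between 3 CT26 lines with 2 libraries each, replicates A and B. CT26 is a colorectal cancer line of BALB/c mice. The parental line was barcoded CT26 cells recovered in bulk from an engrafted tumor, so that it had passed through a host as the clones had. Lines B04 and B64 were each grown from a single cell of such tumors, carried different barcodes and resisted immune checkpoint blockade (ICB), and each is therefore 1 clone. The sample labels speak of tumors, but by its methods the study extracted RNA from lines in culture. The labels give no treatment of the cultures, but by the study's account the clones were isolated after ICB treatment of the host mice.

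Ribosome assembly starts in the nucleolus, where RNA polymerase I transcribes a long precursor of the ribosomal RNAs. The small-subunit processome, a large particle built around the U3 snoRNA from the UTP-A, UTP-B and MPP10 complexes, folds and cuts the part that becomes the small subunit. Other factors, among them the PeBoW complex of Pes1, Bop1 and Wdr12, mature the large subunit, while box C/D snoRNPs guide methylation and box H/ACA snoRNPs guide pseudouridine formation in the RNA. Genes of this pathway are widely known as targets of the Myc transcription factor in growing cells.

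Total expected counts lay between 19409204 and 23472012 per library. Expected counts were divided by size factors, and these normalized counts were compared with DESeq2, with a gene called at an adjusted p under 0.05 over all genes tested. All 60 factors were measured well above the floor, with at least 711 normalized counts in every library. For 9 factors, Imp4, Utp14a, Tsr1, Wdr74, Ddx18, Noc2l, Mrto4, Fbl and Npm1, the expected count was not whole in at least 1 library, so some reads were divided with other genes. The libraries differed in fragment length, taken as the median of gene length minus effective length, which was 277 and 277 bases in the parental libraries, 272 in B04 A, and 225, 221 and 246 in B04 B, B64 A and B64 B. Libraries were split into a long and a short class at the largest gap between these values, from 246 in B64 B to 272 in B04 A. B64 B stood apart from the other short libraries, at 221 and 225. Parental and B64 libraries thus lie in different fragment classes, and B04 holds 1 library of each. Of 7 colon epithelial markers, Epcam, Cdh1, Krt8, Cdx2 and Vil1 were under 1 TPM in all libraries. The remaining markers, Krt18 (log2 fold change 0.73, adjusted p = 0.000157) and Krt20 (1.40, adjusted p = 5.11e-20), rose in B64, and the summed markers were 22.4 to 25.4 TPM in parental and B04 libraries and 45.7 and 48.0 in B64. Cdx2 went the other way, from 33.4 and 22.4 normalized counts in parental cells to 0 in every clone library. It did not pass the test (adjusted p = 0.304 in B04 and 0.375 in B64). All 3 endothelial and all 3 erythroid markers and 6 of 7 leukocyte markers were also under 1 TPM. The summed leukocyte markers were 10.6 to 12.2 TPM in parental and B04 libraries and 40.3 and 36.7 in B64, where Cd68 rose. Cd79a, near the floor, fell in B64, from 7.6 and 13.1 normalized counts in parental cells to 0 in both B64 libraries (adjusted p = 0.0274). Of 3 fibroblast markers, Lum was listed at 0 in every library and both others fell in B04, Pdgfra at -0.87 (adjusted p = 0.00517) and Dcn from 23.8 and 23.4 normalized counts in parental cells to 0.9 and 0. The summed fibroblast markers were 3.61 and 4.10 TPM in parental cells, 2.05 and 1.94 in B04 and 1.79 and 3.20 in B64. The part of these markers in the results was not tested. In bulk RNA, fewer cells that express a gene and less of its RNA per cell cannot be told apart.

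Promoters of 6 factors that were called in B04 are shown, so they do not represent the 60. Wdr75, which fell in B04 (log2 fold change -0.64), has no E-box and is not shown. Also not shown are the E-box factors that did not pass the test in B04. These are Wdr46 (0.03), Ltv1 (0.02), Pes1 (-0.03), Nop2 (-0.07) and Nol11 (-0.19). Imp4, Utp4, Wdr43 and Tsr1 hold an E-box and fell in B04, Wdr74 fell most of all 60, and Polr1c rose. The sequences are from RefSeq on GRCm38.p6, from 250 bases before to 50 bases after the annotated start, 5′ to 3′ on the strand of the gene. Capitals mark CACGTG, the palindromic E-box that Myc and Max can bind, and CCGGAAG or its complement CTTCCGG, the core of ETS family sites. These motifs were searched on both strands and do not overlap each other in the promoters shown. The regions are chr1:34439579-34439878 (plus strand) for Imp4, chr8:106893390-106893689 (plus) for Utp4, chr17:71615965-71616264 (plus) for Wdr43, chr11:74897830-74898129 (plus) for Tsr1, chr19:8735589-8735888 (plus) for Wdr74 and chr17:46247996-46248295 (minus) for Polr1c.
Imp4: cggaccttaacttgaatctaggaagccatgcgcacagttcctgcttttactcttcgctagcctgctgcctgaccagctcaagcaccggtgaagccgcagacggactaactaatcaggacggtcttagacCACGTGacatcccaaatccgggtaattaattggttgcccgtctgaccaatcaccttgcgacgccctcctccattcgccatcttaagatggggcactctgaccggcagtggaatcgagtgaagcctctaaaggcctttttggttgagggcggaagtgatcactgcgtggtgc
Utp4: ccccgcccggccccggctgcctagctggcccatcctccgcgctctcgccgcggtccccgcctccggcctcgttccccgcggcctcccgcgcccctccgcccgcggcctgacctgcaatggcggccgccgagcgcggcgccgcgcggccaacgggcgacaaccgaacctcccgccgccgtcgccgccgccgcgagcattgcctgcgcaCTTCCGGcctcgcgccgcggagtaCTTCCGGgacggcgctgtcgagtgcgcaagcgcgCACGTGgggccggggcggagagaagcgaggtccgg
Wdr43: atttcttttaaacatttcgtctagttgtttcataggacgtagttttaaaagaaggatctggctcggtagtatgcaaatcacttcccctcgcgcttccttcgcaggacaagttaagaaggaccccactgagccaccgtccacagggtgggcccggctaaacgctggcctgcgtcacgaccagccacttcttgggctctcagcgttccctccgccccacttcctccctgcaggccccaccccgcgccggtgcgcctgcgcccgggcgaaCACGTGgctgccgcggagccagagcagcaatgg
Tsr1: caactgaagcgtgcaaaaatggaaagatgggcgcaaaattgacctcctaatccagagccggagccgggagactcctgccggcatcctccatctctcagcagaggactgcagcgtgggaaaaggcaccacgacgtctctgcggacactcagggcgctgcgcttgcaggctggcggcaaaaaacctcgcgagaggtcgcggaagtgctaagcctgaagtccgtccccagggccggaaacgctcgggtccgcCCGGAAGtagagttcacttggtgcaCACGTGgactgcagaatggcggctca
Wdr74: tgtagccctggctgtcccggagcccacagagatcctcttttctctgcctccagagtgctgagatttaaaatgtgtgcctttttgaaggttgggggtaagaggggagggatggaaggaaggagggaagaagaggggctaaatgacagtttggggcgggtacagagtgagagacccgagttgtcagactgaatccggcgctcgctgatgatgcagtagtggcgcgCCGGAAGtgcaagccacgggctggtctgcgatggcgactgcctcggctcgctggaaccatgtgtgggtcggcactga
Polr1c: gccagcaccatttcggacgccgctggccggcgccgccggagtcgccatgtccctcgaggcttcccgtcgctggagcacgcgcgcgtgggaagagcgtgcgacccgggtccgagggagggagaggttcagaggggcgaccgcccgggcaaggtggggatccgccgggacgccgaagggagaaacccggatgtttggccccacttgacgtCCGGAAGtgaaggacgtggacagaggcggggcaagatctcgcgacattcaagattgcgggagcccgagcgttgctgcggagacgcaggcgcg

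A RefSeq promoter was found for 51 of the 60 factors. The E-box was present in 11 of the 51 (21.6%), compared with 10.3% of 9560 tested genes with a promoter and 7.24% of all 27025 promoters. The ETS core was present in 22 (43.1%), compared with 19.4% of tested genes and 9.12% of all promoters. A TATAAA element, searched the same way, was present in 4 (7.84%), compared with 6.80% and 14.2%. The factors with an E-box were Utp4, Wdr43, Nol11, Utp18, Imp4, Utp20, Wdr46, Tsr1 and Ltv1 of the small subunit and Pes1 and Nop2 of the large subunit. A match of letters is a description of the sequence and does not show that a factor bound there.

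Line B04 had less mRNA than the parental line for a large share of these factors. The study had already reported that ribosome biogenesis genes were lower in B04, from its RNA-seq of these lines. The 60 were listed with earlier results known, so their share is no independent finding. Of 60, 28 fell and 2 rose, Polr1c and Wdr36, and 30 did not pass the test. Over all 13218 genes tested, 12.9% fell and 11.2% rose, compared with 46.7% and 3.33% of the 60 factors. The median log2 fold change of the factors was -0.18, compared with 0.00 over all genes, and their range was -0.72 to 0.28, so that most changes were small. Set against the mean of the parental libraries, the median log2 ratio of the 60 factors was -0.181 in B04 A and -0.167 in B04 B, while the parental libraries stood at -0.002 and 0.002. B04 A shares its fragment class with both parental libraries. In that library alone, 49 of 60 factors lay below the parental mean. The matching share of all genes is not given here, but their median log2 ratio in B04 A, above a minimum mean count, was -0.003. With fragment class as a block in the model, 16 of the 30 calls remained, all in the same direction. Because B64 shares no fragment class with the parental line, the blocked change in B04 rests on B04 A against the parental libraries. The block thus repeats that contrast and adds no separate check. Calls lost with the block moved either way in size, as Noc3l went from -0.27 to -0.36 and Utp20 from -0.25 to -0.19 on the log2 scale. On log2(TPM + 1) with limma, 4 of the 30 remained. Shares over all genes are given here only for the DESeq2 fit of all 6 libraries without a block. Calls lost under other settings thus cannot be read as particular to the factors. Leaving out a library left 18 calls without parental A, 16 without B04 A and 17 without B04 B.

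**Figure D1:**
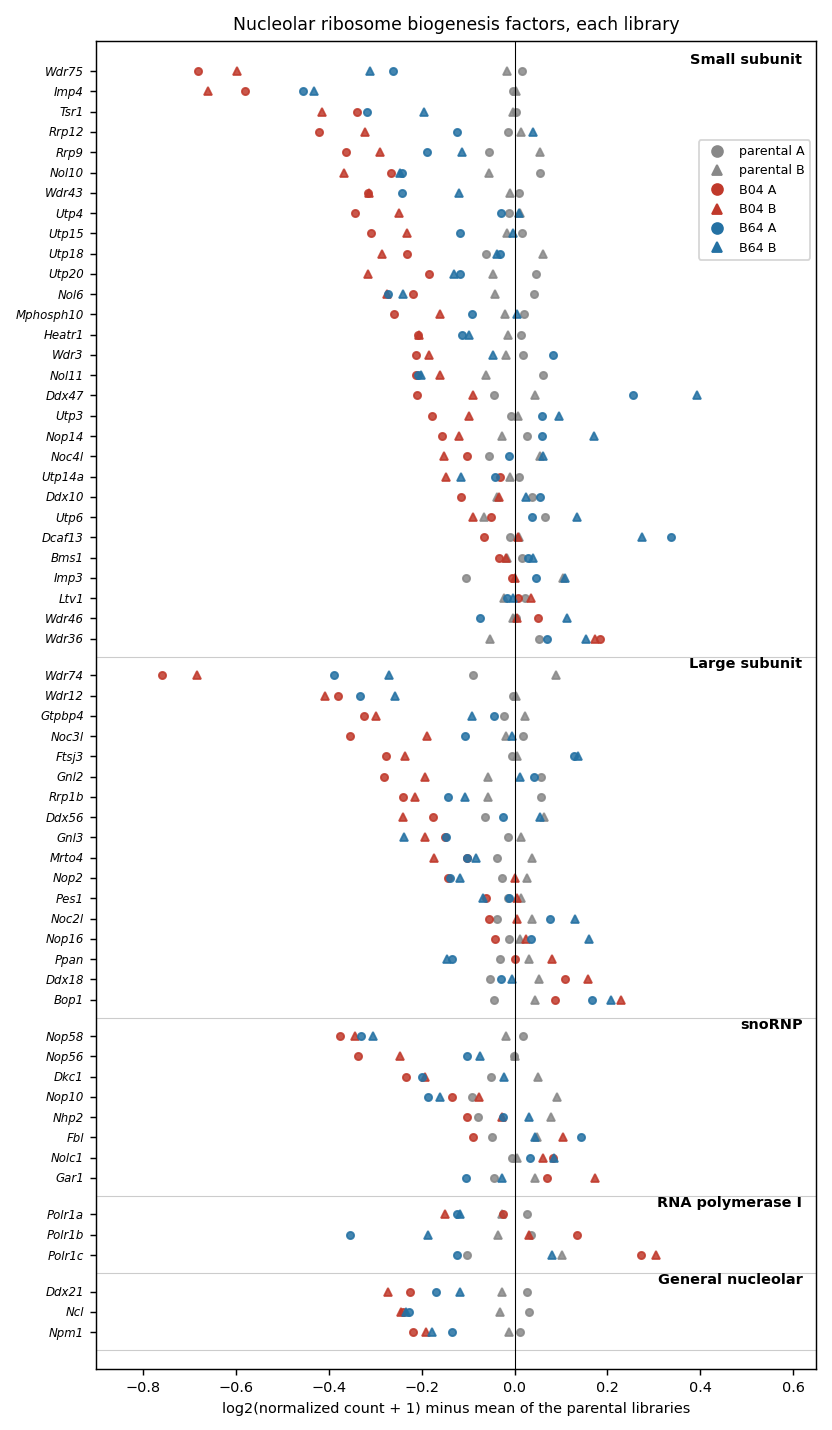
Each row is 1 of the 60 factors, grouped by role, and each point is 1 library. The x axis gives log2(normalized count + 1) minus the mean of both parental libraries (grey), so that points left of 0 are below the parental line. Most points of B04 (red) lie left of 0, with medians of -0.181 and -0.167, and those of B64 (blue) lie nearer to 0, with medians of -0.102 and -0.032.

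Among small-subunit factors, 15 of 29 fell in B04 and 1 rose, with a median of -0.20, and with a fragment-class block 7 were still called lower and none higher by DESeq2 (median -0.21). The UTP-A complex, which links transcription of the precursor to its processing, had 5 of 6 subunits lower and a median of -0.28, and 3 of these calls, Wdr75, Wdr43 and Utp4, remained with the block. Wdr75, a WD-repeat subunit of UTP-A (chr1:45795166-45823619), had 2395 and 2341 normalized counts in parental cells, 1477 and 1564 in B04 and 1976 and 1909 in B64. The 3 lines did not overlap, with B04 lowest and B64 between. Wdr75 fell by 35.8% in B04 (log2 fold change -0.64, SE 0.08, adjusted p = 8.17e-14).

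Wdr43, also of UTP-A (chr17:71615895-71659031), had 5160 and 5085 normalized counts in parental cells, 4117 and 4122 in B04 and 4332 and 4713 in B64. Both clones lay below both parental libraries, and the B04 libraries were nearly equal. The log2 fold change in B04 was -0.31 (SE 0.06, adjusted p = 1.68e-05). Of the other UTP-A subunits, Utp4 fell by 18.6%, Utp15 fell by 17.1% and Heatr1 fell by 13.3% in B04, and Nol11 did not pass the test at -0.19 (adjusted p = 0.107). The calls of Utp15 and Heatr1 were lost with the block (adjusted p = 0.08 and 0.193). Their log2 fold changes were -0.31 and -0.21 with it, compared with -0.27 and -0.21 without it. Heatr1 depended on the unit: its TPM, which divides by effective length, was 22.1 and 20.98 in parental cells, 19.96 and 34.8 in B04 and 28.9 and 43.7 in B64, so its direction turned.

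In the MPP10 complex, which holds U3 snoRNA to the precursor, Imp4 and Mphosph10 fell and Imp3 did not pass the test (log2 fold change -0.01). The call of Mphosph10 was lost with the block (adjusted p = 0.115). Imp4 (chr1:34439851-34449356) had 2423 and 2431 normalized counts in parental cells, 1624 and 1535 in B04 and 1769 and 1799 in B64. Both clones were far below the parental libraries, which nearly coincided. Imp4 fell by 34.9% in B04 (log2 fold change -0.62, SE 0.08, adjusted p = 3.03e-13). In the UTP-B complex, which binds the precursor next after UTP-A, Wdr3 and Utp18 fell, Utp6 did not pass the test, and Wdr36 went the other way. Both falls were lost with a fragment-class block (adjusted p = 0.2 for Wdr3 and 0.29 for Utp18). Wdr36 had 3860 and 3590 normalized counts in parental cells, 4230 and 4199 in B04 and 3907 and 4140 in B64. Its rise in B04 was 0.18 (SE 0.07, adjusted p = 0.0372), and this call was lost as well (adjusted p = 0.228).

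Late factors of the small subunit, which ride with the particle toward the cytoplasm, were lower in B04 for Rrp12 and Tsr1 but not for Ltv1 (log2 fold change 0.02). Tsr1 (chr11:74898071-74909342) had 2940 and 2928 normalized counts in parental cells, 2319 and 2200 in B04 and 2355 and 2564 in B64. It fell by 23% in B04 (log2 fold change -0.38, SE 0.08, adjusted p = 1.08e-05). Part of its exons, 32.3%, overlaps the gene Srr on the other strand, and the library kit does not mark strand, so reads of this pair cannot be told apart there. Rrp12, needed for export of both subunits (chr19:41862851-41896173), had 2576 and 2623 normalized counts in parental cells, 1940 and 2079 in B04 and 2387 and 2673 in B64. Only B04 stood apart from the parental line, at -0.37 (SE 0.08, adjusted p = 6.41e-05).

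Another 13 small-subunit factors belong to no complex above, and 4 of them fell in B04, Rrp9, Nol10, Nol6 and Utp20. With a fragment-class block the calls of Nol10, Nol6 and Utp20 were lost (adjusted p = 0.194, 0.25 and 0.213). Rrp9, a protein specific to the U3 snoRNP (chr9:106475963-106485424), had 2605 and 2810 normalized counts in parental cells, 2105 and 2212 in B04 and 2373 and 2500 in B64, with a log2 fold change of -0.33 in B04 (SE 0.08, adjusted p = 0.000264). The remaining 9, among them the GTPase Bms1, the helicase Ddx10 and the scaffold protein Nop14, did not pass the test and lay between -0.15 and 0.03.

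Among large-subunit factors, 7 of 17 fell in B04 and none rose by DESeq2, with a median of -0.17, and 4 were still called lower with a fragment-class block. Wdr74, a WD-repeat protein of nuclear precursors of the large subunit (chr19:8735827-8740624), gave the largest change of the 60. It had 1502 and 1698 normalized counts in parental cells, 944 and 994 in B04 and 1219 and 1325 in B64. The lines did not overlap and were ordered as for Wdr75. Wdr74 fell by 39.5% in B04 (log2 fold change -0.72, SE 0.10, adjusted p = 3.04e-11). The PeBoW complex changed unevenly. Wdr12 (chr1:60069785-60098645) had 1903 and 1909 normalized counts in parental cells, 1465 and 1436 in B04 and 1514 and 1594 in B64, a log2 fold change of -0.39 in B04 (SE 0.08, adjusted p = 3.18e-05), whereas its partners Pes1 (-0.03) and Bop1 (0.16, adjusted p = 0.0868) did not pass the test.

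Gtpbp4, a GTPase of early large-subunit particles (chr13:8966331-8996083), had 3122 and 3223 normalized counts in parental cells, 2535 and 2581 in B04 and 3076 and 2977 in B64. Its log2 fold change was -0.31 in B04 (SE 0.07, adjusted p = 8.36e-05). Ftsj3, an rRNA methyltransferase (chr11:106249142-106256079), had 3102 and 3124 normalized counts in parental cells, 2568 and 2645 in B04 and 3400 and 3423 in B64. B64 lay above the parental libraries and B04 below them, at -0.26 (SE 0.07, adjusted p = 0.00127). Noc3l fell by 17.1%, Gnl2 fell by 15.2% and Rrp1b fell by 14.7%, and each of these calls was lost with a fragment-class block (adjusted p = 0.0533, 0.159 and 0.258).

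Of the 8 snoRNP proteins, 3 fell in B04. Within the box C/D core, Nop58 and Nop56 fell, and the methyltransferase Fbl did not pass the test (log2 fold change 0.01, SE 0.07). Nop58 (chr1:59684971-59719044) had 6738 and 6571 normalized counts in parental cells, 5125 and 5247 in B04 and 5290 and 5387 in B64. The clones lay close together and well below the parental line, and the change in B04 was -0.36 (SE 0.06, adjusted p = 1.18e-08). Nop56 (chr2:130274430-130279313) had 7800 and 7817 normalized counts in parental cells, 6178 and 6582 in B04 and 7272 and 7420 in B64, with a change of -0.29 in B04 (SE 0.06, adjusted p = 6.44e-06).

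In the box H/ACA core, the pseudouridine synthase Dkc1 (chrX:75095854-75109777) had 3947 and 4236 normalized counts in parental cells, 3480 and 3577 in B04 and 3563 and 4028 in B64. It fell by 13.8% in B04 (log2 fold change -0.21, SE 0.07, adjusted p = 0.0219), and the call was lost with a fragment-class block (adjusted p = 0.133). Its partners Nhp2 (-0.07), Nop10 (-0.11) and Gar1 (0.12), and the snoRNP chaperone Nolc1 (0.07), did not pass the test.

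The 3 RNA polymerase I subunits did not fall in B04. Polr1c, a subunit that RNA polymerases I and III share (chr17:46243920-46248054), had 1819 and 2094 normalized counts in parental cells, 2359 and 2409 in B04 and 1792 and 2063 in B64. B04 stood above both other lines, which overlapped, and Polr1c rose by 21.8% in B04 (log2 fold change 0.28, SE 0.09, adjusted p = 0.0123), a call lost with a fragment-class block (adjusted p = 0.179). Polr1a, the largest subunit (chr6:71909053-71984935), had 4083 and 3929 normalized counts in parental cells, 3935 and 3613 in B04 and 3675 and 3693 in B64, and its change in B04 was -0.09 (SE 0.07, adjusted p = 0.427). Polr1b, the second-largest subunit (chr2:129100995-129126594), had the lowest mean level of the 60 at 14.3 TPM. It had 933 and 887 normalized counts in parental cells, 998 and 929 in B04 and 711 and 799 in B64, so that only B64 lay apart, while the change in B04 was 0.08 (SE 0.11, adjusted p = 0.688).

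All 3 general nucleolar proteins fell in B04. Npm1, which encodes nucleophosmin (chr11:33152287-33163206), had the highest mean level of the 60 at 1810 TPM. It had 37779 and 37159 normalized counts in parental cells, 32181 and 32829 in B04 and 34120 and 33126 in B64, a change of -0.21 in B04 (SE 0.05, adjusted p = 0.000114). Ncl, which encodes nucleolin (chr1:86344719-86359400), had 43282 and 41451 normalized counts in parental cells, 35865 and 35736 in B04 and 36210 and 36051 in B64, a change of -0.24 in B04 (SE 0.05, adjusted p = 3.23e-06). The RNA helicase Ddx21 (chr10:62580251-62602281) had 9943 and 9568 normalized counts in parental cells, 8346 and 8070 in B04 and 8677 and 8986 in B64, a change of -0.25 in B04 (SE 0.06, adjusted p = 7.76e-05). For each of the 3, no clone library reached the lower parental library.

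**Figure D2:**
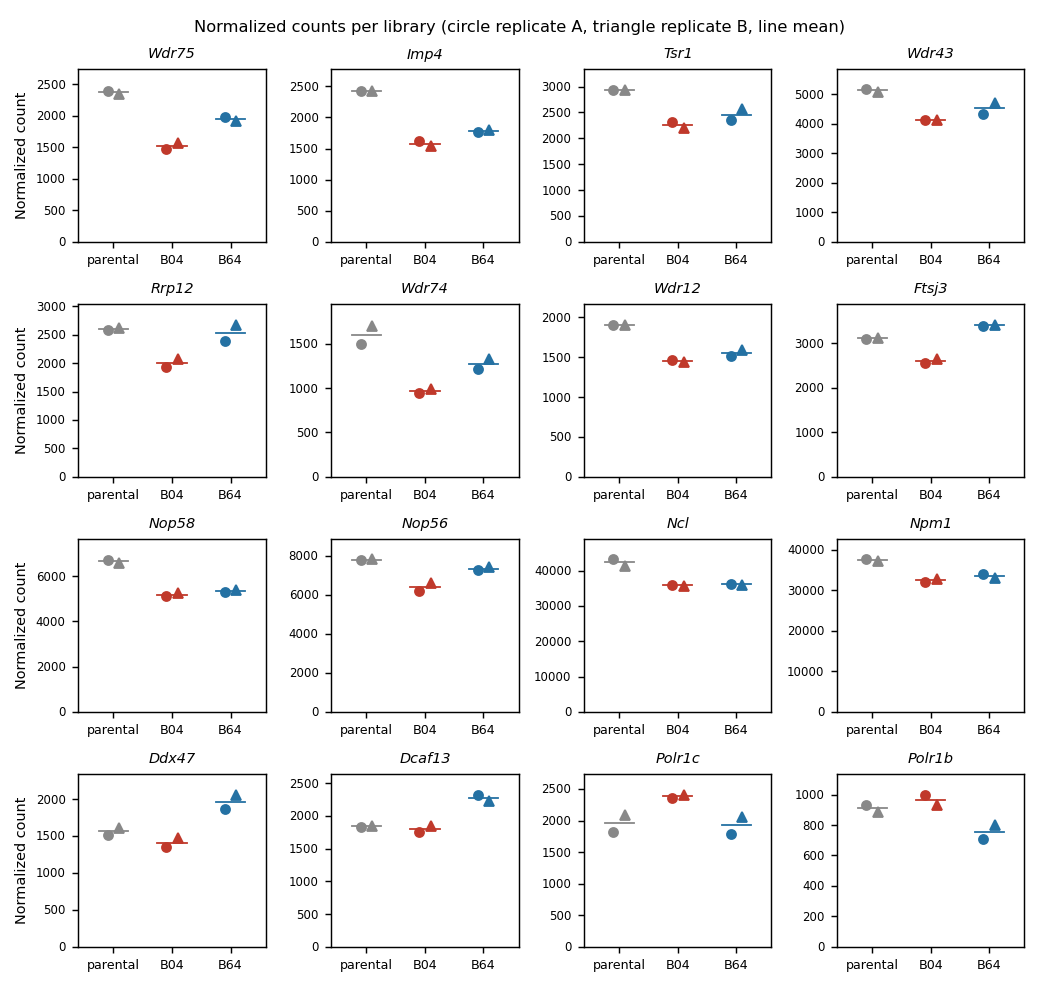
Normalized counts (y axis, from 0) of 16 factors in the parental line, B04 and B64 (x axis), with circles for replicate A, triangles for replicate B and a line at the mean of each group. Wdr75, Imp4 and Wdr74 are lowest in B04 with B64 between, Ncl and Nop58 are nearly equal in both clones, and Ddx47 and Dcaf13 are highest in B64.

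Fewer of the factors differed between B64 and the parental line. Of 60, 11 fell and 2 rose, with a median log2 fold change of -0.06 and a range of -0.44 to 0.33. Over all 13218 genes tested, 7.45% fell and 8.87% rose, compared with 18.3% and 3.33% of the factors. By role, 5 of 29 small-subunit factors fell and 2 rose, 3 of 17 large-subunit factors and 1 of 8 snoRNP proteins fell, and 2 of 3 general proteins fell. Parental and B64 libraries share no fragment class, so line and class can be separated only through B04. With the class as a block, DESeq2 called none of the 60, and 7 had an unadjusted p under 0.05. The share of all genes called with the block is not given here, so this loss cannot be read as particular to the factors. Without the block, edgeR called 16. Leaving out a single library left 4 calls without parental A, 7 without parental B, 4 without B64 A and 5 without B64 B.

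The smallest adjusted p-values in B64 belonged to genes of chromosome 1. Imp4 fell by 26.5% (log2 fold change -0.44, SE 0.08, adjusted p = 7.05e-07), Nop58 fell by 19.8% (-0.32, SE 0.06, adjusted p = 1.21e-06) and Ncl fell by 14.7% (-0.23, SE 0.05, adjusted p = 2.00e-05). The fragment-class block ended these calls (adjusted p = 0.387, 0.0731 and 0.27). The other 8 that fell in B64 were Wdr75, Wdr43, Tsr1, Nol6, Wdr12, Wdr74, Gnl3 and Npm1, at -0.33 to -0.16. Of the RNA polymerase I subunits, Polr1b was at -0.27 (adjusted p = 0.092), Polr1a at -0.12 (adjusted p = 0.262) and Polr1c at -0.02 (adjusted p = 0.936) in B64.

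Both factors that rose in B64 serve the small subunit. Ddx47, an RNA helicase (chr6:135011612-135023776), had 1515 and 1609 normalized counts in parental cells, 1350 and 1468 in B04 and 1863 and 2050 in B64, a rise of 25.3% (log2 fold change 0.33, SE 0.09, adjusted p = 0.00378). Dcaf13, a WD-repeat factor of the processome (chr15:39112865-39146856), had 1828 and 1851 normalized counts in parental cells, 1757 and 1849 in B04 and 2324 and 2226 in B64, a rise of 23.7% (log2 fold change 0.31, SE 0.08, adjusted p = 0.00147). In both cases B64 lay above all libraries of the other lines.

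The clones were also compared directly. Between B64 and B04, 13 factors were higher in B64 and 3 lower, with a median log2 difference of 0.11. Over all 12855 genes tested, 13.1% were higher and 11.1% lower, compared with 21.7% and 5% of the factors. The higher group held 8 small-subunit, 4 large-subunit and 1 snoRNP factor, and the lower group was Polr1b, Polr1c and Gar1. The smallest adjusted p-values were those of Ftsj3 (log2 difference 0.39, SE 0.07, adjusted p = 1.84e-07), Ddx47 (0.47, SE 0.09, adjusted p = 3.14e-06) and Wdr75 (0.35, SE 0.08, adjusted p = 0.000134). These were also the 3 calls that remained with a fragment-class block (adjusted p = 0.00197, 0.011 and 0.0465). Wdr74 (0.39), Dcaf13 (0.34), Rrp12 (0.33), Utp4 (0.29) and Gtpbp4 (0.24) were called higher in B64 without the block. Ncl (0.01, SE 0.05) and Nop58 (0.04, SE 0.06) differed by no more than their errors.

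Among the RNA polymerase I subunits, Polr1a did not pass the test between the clones (log2 difference -0.04, SE 0.07, adjusted p = 0.799), and the others were lower in B64. Relative to B04, Polr1b in B64 fell by 21.6% (log2 difference -0.35, SE 0.11, adjusted p = 0.011) and Polr1c fell by 19.1% (-0.31, SE 0.09, adjusted p = 0.0065). Gar1, the small H/ACA protein (chr3:129824912-129831396), had 4850 and 5163 normalized counts in parental cells, 5254 and 5643 in B04 and 4654 and 4911 in B64, and relative to B04 fell by 12.2% in B64 (-0.19, SE 0.07, adjusted p = 0.0237). Among short-fragment libraries alone, the median difference of the 60 factors between B64 and B04 B was 0.10, and 45 were above 0. The matching share of all genes is not given here. Above a minimum mean count, their median log2 ratio to the parental mean was -0.007 in B04 B and -0.005 and -0.001 in B64. The fragment-class block between the clones rests on the same contrast of B64 with B04 B and is no separate check. The call count fell to 6 without B04 A, 10 without B04 B, 9 without B64 A and 8 without B64 B.

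Genes that act beside the 60 in the same pathway gave the setting for these values. Over all genes tested, 12.9% fell and 11.2% rose in B04. Of 22 other small-subunit genes, 7 fell in B04 and none rose by DESeq2, with a median of -0.13. Utp11, a processome subunit, was among them, at 2516 and 2587 normalized counts in parental cells, 1860 and 2011 in B04 and 2669 and 2819 in B64 (log2 fold change -0.40 in B04, SE 0.08, adjusted p = 4.55e-06). Of 37 other large-subunit genes, 18 fell in B04 and 1 rose, with a median of -0.19. Nmd3, the export adaptor of the large subunit, was at -0.50 (SE 0.08, adjusted p = 2.11e-09), and Nvl, an ATPase that works with Wdr74, was at -0.30 (SE 0.10, adjusted p = 0.0227). In B64, 3 of the 37 fell and 4 rose (8.11% and 10.8%), near the 7.45% and 8.87% of all genes tested. Between the clones 15 were higher in B64 (40.5%, compared with 13.1% of all genes tested) and none lower by DESeq2.

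Of 13 other genes of RNA polymerase I transcription, 2 fell and 2 rose in B04, with a median of 0.02. These are 15.4% each way, near the 12.9% and 11.2% of all genes tested. Ubtf, the upstream binding factor of ribosomal DNA, was higher in B04 at 0.23 (SE 0.06, adjusted p = 0.00149) and Rrn3, which recruits the polymerase to the promoter, lower at -0.28 (SE 0.08, adjusted p = 0.00479). In B64, Tcof1, which encodes the nucleolar protein treacle, was lower at -0.33 (SE 0.06, adjusted p = 1.96e-06). Of 13 tested subunits and partners of the RNA exosome, which trims the precursors, 4 fell and 1 rose in B04, with a median of -0.04. Of 78 ribosomal protein genes, 19 fell and 1 rose in B04 (median -0.09), and 16 fell and 1 rose in B64 (median -0.05). Those that fell make 24.4% in B04 and 20.5% in B64, compared with 12.9% and 7.45% of all genes tested.

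**Figure D3:**
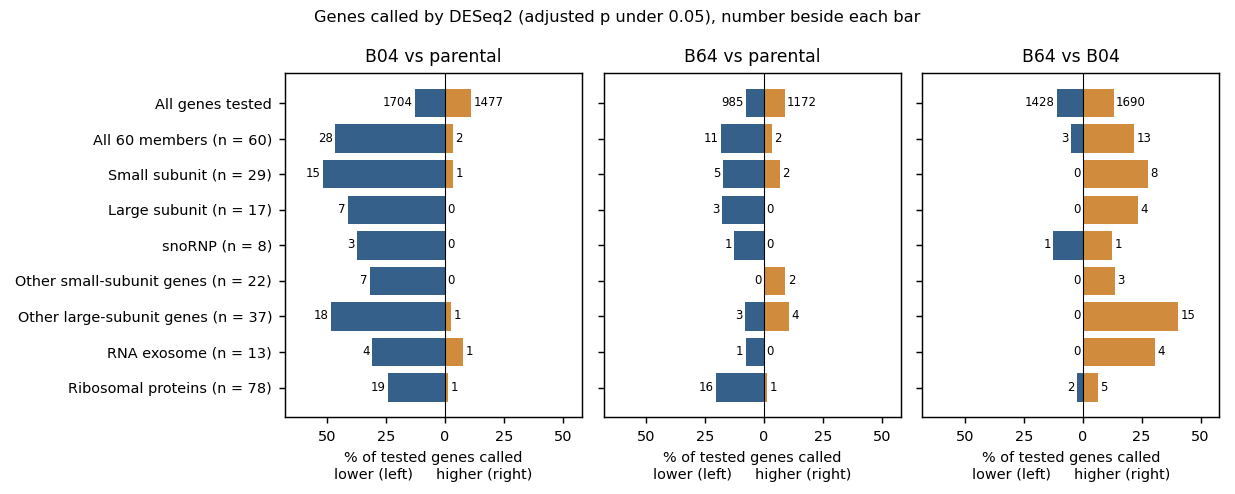
Bars give the percentage of tested genes called lower (left of 0) or higher (right of 0) by DESeq2 in each comparison, with the number of genes beside each bar, and the groups of 3 genes are not drawn. In B04 the bars of all 60 factors (28 lower, 2 higher) and of the other large-subunit genes (18 and 1) point left beyond those of all genes (1704 and 1477), and between the clones the bars of the same groups point right.

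Position was a feature that some of the factors shared beyond their role. Chromosome 1 carries 6 of them, and 5, Imp4, Wdr75, Nop58, Wdr12 and Ncl, fell in B04 and also in B64, each compared with the same parental libraries. The sixth, Ddx18, did not pass the test in either. The tested genes around each factor, at most 50 on either side with the 60 factors left out, gave a local level. Around Wdr75 the neighbors had a median log2 fold change of -0.32 in B04 and -0.31 in B64, and around Imp4 of -0.27 and -0.24. Around Nop58 and Wdr12 the medians were both -0.26 in B04 and both -0.30 in B64, around Ncl -0.21 and -0.15, and around Ddx18 -0.01 and -0.03.

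After subtraction of the local level, Imp4 was at -0.35 and Wdr75 at -0.32 in B04, whereas Ncl was at -0.03 and Nop58 at -0.10. In B64, Wdr75 was at 0.03, Wdr12 at 0.00, Nop58 at -0.02 and Imp4 at -0.20. Wdr74 on chromosome 19 had neighbors at 0.05 and was at -0.77 after subtraction in B04. Ddx47 on chromosome 6 had neighbors at 0.30 in B64 and was at 0.03 after subtraction, and Wdr36 in B04 had neighbors at 0.21 and was at -0.03. Across the 60, the median after subtraction was -0.13 in B04, -0.03 in B64 and 0.12 between B64 and B04. The 54 factors on other chromosomes had 23 lower and 2 higher in B04 with a median of -0.15, and 6 lower and 2 higher in B64 with a median of -0.04. Over all genes tested, 12.9% were lower and 11.2% higher in B04, and 7.45% and 8.87% in B64.

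**Figure D4:**
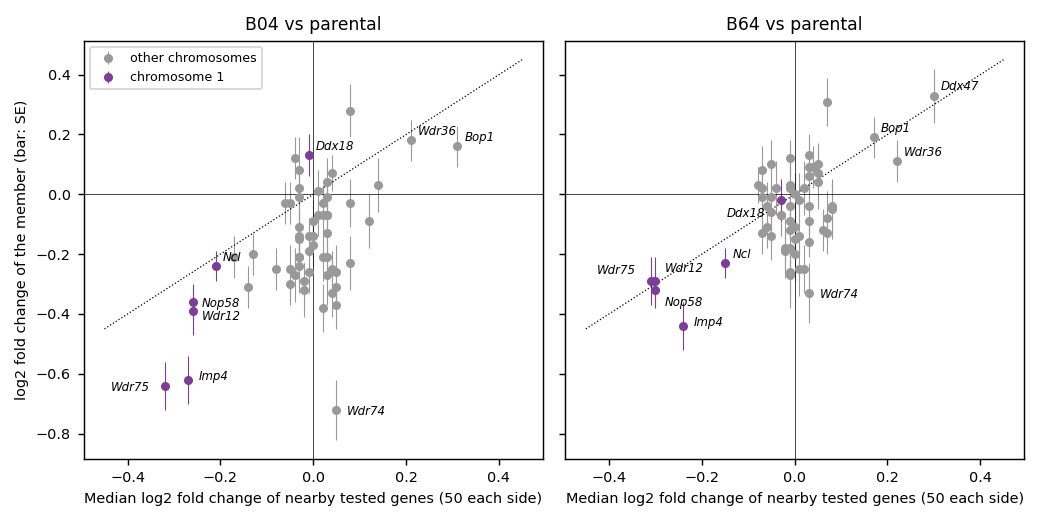
Each point is 1 of the 60 factors, with its log2 fold change against the parental line on the y axis (bar: SE) and the median log2 fold change of tested genes around it on the x axis, and the dotted line marks equal values. Of the 6 factors on chromosome 1 (purple), 5 have neighbors between -0.32 and -0.15 in both clones, and Wdr74 lies far below the line in B04 with neighbors at 0.05.

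Some of these genes also carry the guides of the snoRNPs. In the GENCODE annotation, 23 snoRNA genes lie inside 8 of the factors: 5 in Nop56, 4 in Nop58, 3 each in Wdr43, Gnl3 and Ncl, 2 each in Tsr1 and Ppan and 1 in Dkc1. Of these 8 hosts, 6 fell in B04 (median -0.27), and 5 fell in B64 (median -0.19). Of the other 52 factors, 22 fell and 2 rose in B04 (median -0.14), and 6 fell and 2 rose in B64 (median -0.04). The hosts that fell make 75% in B04 and 62.5% in B64, and the others 42.3% and 11.5%. Over all genes tested these shares were 12.9% and 7.45%. Nop58 and Ncl are both hosts and genes of chromosome 1. The libraries were made from polyadenylated RNA, and levels of the snoRNAs themselves were not analysed here.

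The promoter elements described above were set beside the fold changes. Of the 11 factors with an E-box, 6 fell in B04, with a median of -0.25, and of the 40 without it, 18 fell and 1 rose, with a median of -0.16. Over all tested genes with a promoter, the medians were -0.05 with and 0.00 without an E-box, and 17.9% and 13.4% fell. Imp4, Utp4, Wdr43 and Tsr1, whose promoters are printed above, are 4 of the 6, with Utp18 and Utp20. In B64, 3 of the 11 and 6 of the 40 fell, with medians of -0.13 and -0.07. Over all tested genes with a promoter, 8% with and 8.04% without an E-box fell in B64.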

How the data were processed

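RNA from 6 cultured samples in 3 groups of 2 was enriched for polyadenylated mRNA, made into unstranded libraries and sequenced. The authors aligned reads to mm10 with STAR and estimated counts with RSEM, per the labels and the study's methods. The annotation release is not given in the sources used here. For each gene the deposited tables hold an expected count, a TPM value scaled by the authors for effective length and library total, and the length and effective length themselves. The deposited FPKM values were not used. Symbols and gene coordinates are from GENCODE M21 on GRCm38, the assembly of mm10, and promoters from RefSeq.

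Expected counts were rounded and fitted with DESeq2 1.42.0 (R 4.3.3) over all 6 libraries with group as the only term, a Wald test with independent filtering and no shrinkage, and Benjamini-Hochberg adjustment over all genes tested. Alternatives were edgeR 4.0.16 (quasi-likelihood), limma 3.58.1 on log2(TPM + 1) and log2(TPM + 0.1) for genes with at least 1 TPM in 2 libraries, other size factors and filters, an effective-length offset, blocks and leaving out each library. Percent changes are converted from the DESeq2 log2 fold changes. Local levels and the removal of factors that can share reads were alternatives chosen after seeing the data.

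The 60 factors, their roles and the other gene lists were chosen with earlier results of these data known, and no set test was run. Values in each library are given for factors named by rule: those with the smallest adjusted p in each role in B04 (at most 6 small-subunit, 4 large-subunit, 3 snoRNP, 2 polymerase and 3 general), the 3 smallest in the other comparisons, and up to 4 called in the rarer direction, with the highest and lowest mean TPM. Utp4, Heatr1, Utp11, Nmd3 and other genes named for counts were chosen after their values were seen.

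The test was checked on simulated counts for B04 against the parental line with 18435 genes tested. It recovered 16.7% of changes of 0.25 on the log2 scale, 65.0% of 0.5 and 100.0% of 1, with 10 false among 129 calls. At these sizes 72, 60 and 68 genes were changed, whereas in the data 1704 genes fell and 1477 rose in B04. The adjusted threshold is stricter when fewer genes change, so these shares do not measure how many changes were missed in the data. Replicates differed by more than counting noise (chi-square per degree of freedom 5.33 to 7.17), and since the labels do not say whether they were separate cultures, p-values measure only the spread between these libraries.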

Additional observations from a re-analysis of the deposited data

Results flagged for a closer look

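Results are listed here because the direct comparison of the clones found that their changes from the parental line differ (DESeq2, adjusted p under 0.05). Such differences were found for 16 of the 60 factors, 21.7% higher and 5% lower in B64, compared with 13.1% and 11.1% of all genes tested, and with a fragment-class block 3 remained, Ftsj3, Ddx47 and Wdr75. Those among the factors described by library are given as the log2 value of B64 minus B04. The clones differed by 0.47 for Ddx47, 0.39 for Ftsj3, 0.39 for Wdr74, 0.35 for Wdr75, 0.34 for Dcaf13, 0.33 for Rrp12, 0.24 for Gtpbp4 and 0.20 for Nop56, each with more mRNA in B64. They differed by -0.35 for Polr1b, -0.31 for Polr1c and -0.19 for Gar1, each with less mRNA in B64. Groups of 2 libraries are too small for an outlier test.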

How the results depend on the processing

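Direction of the median held in all 3 comparisons under every alternative run, but the number of calls did not. Shares of all genes called under the alternatives are not given here, so lost calls cannot be read as particular to the factors. In B04 against the parental line (30 called, median -0.18), 16 were called with a fragment-class block and 4 with limma on TPM at either pseudocount, where the median was -0.12. Leaving out a library gave 16 to 22 calls (18 without parental A, 16 without B04 A, 17 without B04 B), and subtraction of neighboring genes gave a median of -0.13. In B64 (13 called, median -0.06), 0 were called with the fragment-class block (median -0.10; 7 at an unadjusted p under 0.05), 8 with the effective-length offset and 3 with limma at either pseudocount (median -0.02). Leaving out a library gave 4 to 11 calls and medians of -0.10 to -0.03, and the neighbors gave -0.03. Between the clones (16 called, median 0.11), 3 were called with the fragment-class block, 10 with the offset (median 0.07) and 6 with limma (median 0.04). Leaving out a library gave 6 to 15 calls and medians of 0.07 to 0.12. The causes were not tested. With edgeR the counts were 33, 16 and 23. The 48 factors without shared reads gave 25 calls and a median of -0.19 in B04. Heatr1 was the call in B04 whose sign turned under TPM and the offset.

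Samples with the same replicate letter did not deviate together (correlations of 0.11, 0.01 and -0.05), so the letter was not treated as pairing. With it as a replicate block, 24, 11 and 14 factors were called, with medians of -0.18, -0.06 and 0.10. Over the factors named by rule, 949 alternative values kept their side of the threshold with no called direction reversed, 151 lost the call and 4 gained one. Uncalled values that changed sign are counted among the 949. Over the roles, 338 values stayed within 1.5 times the count or the replicate spread and 142 moved. Each factor had 711 or more normalized counts in every library, and how far depth or the number of libraries limits the calls was not tested.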

Other observations

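Genes of the Myc network, a list set beside the factors because many of them are known Myc targets, showed no called change in Myc itself. Myc had 3560 and 3749 normalized counts in parental cells, 3907 and 3833 in B04 and 3562 and 3655 in B64 (log2 fold change 0.08, adjusted p = 0.423 in B04, and -0.02, adjusted p = 0.916 in B64, DESeq2). Of 8 tested genes of the list, 3 rose and 0 fell in B04, and the same numbers held in B64. Over all genes tested, 11.2% rose in B04 and 8.87% in B64. Mxd3, which encodes a Max partner that opposes Myc, had 263 and 289 normalized counts in parental cells, 691 and 677 in B04 and 391.9 and 392.2 in B64. It rose by 1.31 on the log2 scale in B04 (SE 0.15, adjusted p = 1.8e-17) and by 0.51 in B64 (SE 0.15, adjusted p = 0.00728), and the clones differed by -0.80 (B64 minus B04, SE 0.14, adjusted p = 3.41e-07). Mxi1, another such partner, had 746 and 866 normalized counts in parental cells, 1351 and 1472 in B04 and 1094 and 1096 in B64, a rise of 0.81 (SE 0.11, adjusted p = 2.01e-12) in B04 and of 0.44 (SE 0.11, adjusted p = 0.000679) in B64. In both genes the lines did not overlap and B64 lay between the parental line and B04. Mxd4 was called in B04 and Mxd1 in B64. As B64 and parental libraries share no fragment class, line and class are confounded in the B64 values of this list. Values with a fragment-class block are not given for its genes. These genes and the 60 factors were measured in the same libraries, and no relation between them was tested.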
